A study of Homo sapiens with 4 samples.

Results

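Axon guidance ligands and receptors were examined in the array data of PC3 cells, a prostate cancer line derived from bone. All cells were cultured alike in DMEM/F12 medium with serum. The PC3-SCR group (2 arrays) carried the empty pBABE vector and the PC3-PDEF group (2 arrays) over-expressed PDEF, a prostate-derived ETS transcription factor encoded by SPDEF. These groups are the VC-PC3 and PDEF-PC3 cells of the study, whose methods describe stable transfection and do not say whether each is 1 clone or a pool. The genes were those whose symbol starts with SEMA, PLXN, EPHA, EPHB, EFNA, EFNB, SLIT1, SLIT2, SLIT3, ROBO, UNC5 or NTN, together with NRP1, NRP2, DCC and NEO1. The rule found 72 of the 18417 genes measured. It used measured values only to choose 1 probe set per gene, the brightest on average. The rule itself was set with earlier results of these data known. By its letters alone it also took in UNC50, which encodes a Golgi membrane protein, and UNC5CL, an UNC5-like gene, which leaves 36 ligand genes and 34 receptor genes.

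Guidance cues steer growing axons and migrating cells by attraction and repulsion. Semaphorins act through plexins, which regulate the cytoskeleton and cell adhesion, and the secreted class 3 semaphorins mostly need a neuropilin as binding partner. Ephrins stay on the cell surface and signal both into the cell with the Eph receptor tyrosine kinase and back into their own cell. Netrins bind DCC, neogenin and UNC5 receptors, and Slits bind Robos. In epithelia and tumours these families take part in cell contact, migration and vessel growth.

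The labels were checked first. SPDEF signals, which are log2 values throughout, were 5.99 and 6.06 in PC3-SCR and 6.85 and 6.73 in PC3-PDEF arrays. The labelled gene was thus higher in PC3-PDEF, by 0.77 (standard error 0.088, adjusted p = 0.000563). CTNNA1 and STAT3 are known to be deleted in PC3 cells, and the PC3-SCR arrays gave 4.77 and 4.07 for CTNNA1 and 4.51 and 4.70 for STAT3. The PC3-PDEF arrays gave 9.76 and 9.86 for CTNNA1 and 9.06 and 9.05 for STAT3, which goes against the label PC3 for this group. Both PC3-PDEF arrays showed it, so no comparison is possible without them. PDEF and whatever else separates the groups cannot be told apart in any difference given here. Rose and fell here mean only higher and lower in PC3-PDEF than in PC3-SCR. Of the epithelial markers, KRT8 and KRT18 were between 8.88 and 9.91 on all arrays, with KRT8 lower in PC3-PDEF by a log2 difference of -0.64. HOXB13 had signals of 6.63 and 6.65 against 6.78 and 6.74, a log2 difference of 0.12 (adjusted p = 0.259). EPCAM fell by 1.69, from 7.81 and 7.74 to 5.65 and 6.53, and CDH1 was under the gauge described next on all arrays. Background was gauged by the highest olfactory receptor gene, OR2H2 on each array, at 5.94 and 6.01 in PC3-SCR and 5.65 and 5.75 in PC3-PDEF. The second highest such gene lay between 5.32 and 5.61. SPDEF was above the gauge on all arrays, but only just so in PC3-SCR (5.99 and 6.06), and its fitted rise was 1.70-fold. A fold change with 1 group not above this gauge is given as a lower bound, computed with the gauge in place of the dim signals. The arrays read bulk RNA, in which fewer cells of a type and less RNA per cell cannot be told apart.

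Guidance genes differed between the groups in both directions. At an adjusted p under 0.05, 22 of the 72 genes were higher in PC3-PDEF, beside 26.7% of all genes tested, and 30 were lower, beside 24.0%, while 20 missed the threshold. The called share was 72.2%, beside 50.7% of all genes. At least 2-fold fitted differences were called for 11 genes upward (8.67% of all genes) and 10 downward (6.07%), or 29.2% of the 72 beside 14.7%. All 2-fold counts here use fitted differences and not the lower bounds. Upward, the bound was 4.71-fold for NEO1, 2.88-fold for SEMA6A, 1.09-fold for SEMA3E and 1.02-fold for EPHB1. UNC5C, ROBO2, SEMA3D and EPHA6 had no bound. Downward, it was 1.52-fold for PLXNA2 and 1.66-fold for NTNG1. For 63 of the 72 genes both PC3-PDEF arrays lay on 1 side of both PC3-SCR arrays, beside 74.7% of all genes. The median log2 difference was -0.19, and over all genes it was -0.05. Of the 36 ligand genes 11 were higher and 16 lower, and of the 34 receptor genes 11 and 14. At a fitted difference of at least 2-fold, they were 4 higher and 6 lower for ligands and 7 higher and 4 lower for receptors. The higher receptor genes include EPHB1, UNC5C, ROBO2 and EPHA6, whose size is not bounded at 2-fold. Nor is that of the higher ligand genes SEMA3E and SEMA3D, the lower ligand gene NTNG1 and the lower receptor gene PLXNA2. The difference between ligands and receptors was not tested. Of the called genes, 5 higher and 10 lower ones were in neither group above the gauge on both arrays. Calls were also lost when 1 array was left out, which leaves less to estimate the spread from. Without PC3-PDEF replicate 2, 14 genes were higher, and without PC3-SCR replicate 1, 19 were lower, while 30 of the 52 called genes passed in every fit with 1 array left out.

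**Figure D1:**
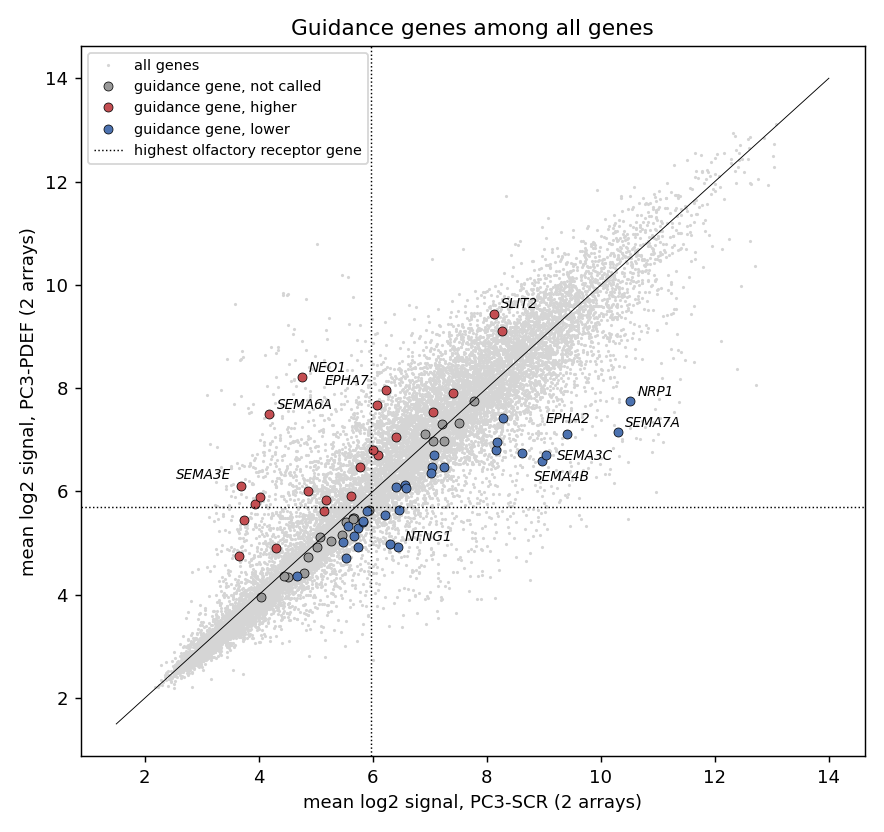
Mean log2 signal of PC3-PDEF (vertical axis) against PC3-SCR (horizontal axis), 2 arrays each, for the 72 guidance genes (red higher, blue lower, grey not called) among all 18417 genes (light grey). The solid line marks equal signal and the dotted lines the mean of the highest olfactory receptor gene in each group. NEO1 and SEMA6A lie far above the solid line and left of the dotted line, and SEMA7A and NRP1 lie far below the solid line at a PC3-SCR signal above 10.

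Upstream windows are shown for the genes with the largest fitted differences among those in the RefSeq promoter table, NEO1 and SEMA3E upward and SEMA7A and SEMA4B downward. NEO1 and SEMA3E were at background in PC3-SCR, so their place in that order is not measured. Each window holds the 250 bases before an annotated start in GRCh38.p14, printed 5′ to 3′ along the gene: chr15:73051652-73051901 (plus strand) for NEO1, chr7:83649140-83649389 (minus) for SEMA3E, chr15:74433959-74434208 (minus) for SEMA7A and chr15:90201080-90201329 (plus) for SEMA4B. Where a gene has several annotated starts the first listed one is shown, and the arrays do not tell which start was in use. Capitals mark GGAT or its complement ATCC, the core that PDEF prefers over the GGAA of most ETS factors.
NEO1: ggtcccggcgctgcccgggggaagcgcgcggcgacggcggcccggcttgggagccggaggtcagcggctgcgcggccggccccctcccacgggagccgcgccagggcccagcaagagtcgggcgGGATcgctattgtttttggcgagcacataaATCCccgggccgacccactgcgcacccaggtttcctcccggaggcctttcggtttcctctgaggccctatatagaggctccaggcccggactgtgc
SEMA3E: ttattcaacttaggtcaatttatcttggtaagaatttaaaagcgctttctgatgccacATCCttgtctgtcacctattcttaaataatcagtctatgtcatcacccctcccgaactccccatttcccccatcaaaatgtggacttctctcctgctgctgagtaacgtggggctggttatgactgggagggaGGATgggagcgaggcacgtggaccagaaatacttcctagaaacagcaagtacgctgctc
SEMA7A: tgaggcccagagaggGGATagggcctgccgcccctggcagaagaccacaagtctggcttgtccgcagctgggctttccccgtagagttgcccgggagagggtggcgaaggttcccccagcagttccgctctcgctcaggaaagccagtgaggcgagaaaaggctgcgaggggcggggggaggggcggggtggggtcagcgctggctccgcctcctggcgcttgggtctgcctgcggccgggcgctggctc
SEMA4B: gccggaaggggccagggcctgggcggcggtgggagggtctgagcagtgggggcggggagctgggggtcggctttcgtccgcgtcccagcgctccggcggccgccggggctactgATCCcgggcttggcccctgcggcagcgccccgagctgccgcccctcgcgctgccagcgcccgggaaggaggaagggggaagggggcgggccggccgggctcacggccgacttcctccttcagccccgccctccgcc
In the windows shown the core occurs 2 times for NEO1 and SEMA3E and 1 time for SEMA7A and SEMA4B. Over all listed windows it occurs 2 times for NEO1 (1 window) and 3 times each for SEMA3E (2 windows), SEMA7A (2) and SEMA4B (3). It is frequent in any such window. Of 27305 genes in the table, 74.8% hold it, searched on both strands in any of their windows, and of the 61 guidance genes with an entry 72.1% do. The share was 15 of 19 among the higher and 18 of 26 among the lower guidance genes. The longer motif CCGGAT was found for 4 of the 61 genes (6.6%, beside 7.1% of all genes), with 0 of them among the higher and 3 among the lower genes. The motif CCGGAA was found for 5 of the 61 (8.2%, beside 17.2%), 0 of them higher and 3 lower. Its match in the SEMA4B window begins at the second base of the sequence shown. These are matches of letters and not measured binding.

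More semaphorin genes fell than rose, and the 4 that fell at least 2-fold were above the gauge on all arrays. The 19 semaphorin genes comprised 10 that fell, 6 that rose and 3 without a call, and their median log2 difference was -0.37. Their called share was 84.2%, beside 50.7% of all genes. SEMA7A, which encodes a membrane-anchored semaphorin that binds integrins and plexin C1, had signals of 10.39 and 10.20 in PC3-SCR and of 7.05 and 7.24 in PC3-PDEF. The log2 signal fell by 3.15 (standard error 0.11, adjusted p = 5.94e-06), an 8.88-fold lower level. Both PC3-PDEF arrays stayed above the gauge, so the transcript was lower there and still detected.
SEMA4B, a transmembrane semaphorin gene, had signals of 9.07 and 8.85 against 6.64 and 6.55 and fell by 2.36 (standard error 0.10, adjusted p = 1.27e-05). SEMA3C, which encodes a secreted semaphorin, had signals of 9.01 and 9.08 against 6.69 and 6.73 and fell by 2.33 (standard error 0.083, adjusted p = 6.03e-06). SEMA3A, the best known axon repellent of the class, had signals of 8.14 and 8.21 against 6.93 and 6.98 and fell by 1.22 (standard error 0.083). For each of these genes the replicates differed by far less than the groups, and the groups did not overlap. The other falls were smaller. SEMA3F, whose product mainly uses neuropilin-2, fell by 0.68 and SEMA4F by 0.37, while SEMA3B, SEMA5A, SEMA5B and SEMA6D fell by 0.40 to 0.83 without being above the gauge on both arrays of either group.
Of the 6 semaphorin genes that rose, 5 were under the gauge on both PC3-SCR arrays, and SEMA4G was above it on 1. SEMA6A, a transmembrane semaphorin gene, had signals of 4.20 and 4.17 in PC3-SCR and of 7.62 and 7.38 in PC3-PDEF. Its log2 difference was 3.31 (standard error 0.11, adjusted p = 4.37e-06), and against the gauge the level was at least 2.88-fold higher. SEMA3E, whose product binds plexin D1 without a neuropilin, had signals of 3.76 and 3.61 against 6.09 and 6.12. Its log2 difference of 2.42 (standard error 0.090, adjusted p = 7.27e-06) amounts to at least 1.09-fold over the gauge, so its size is poorly bounded. SEMA3D also rose, by 1.71, and stayed under the gauge in PC3-PDEF with 5.47 and 5.41. SEMA4G had signals of 6.03 and 5.96 against 6.78 and 6.81 and rose by 0.80 (standard error 0.082, adjusted p = 0.000334).
SEMA4D, the ligand of plexin B1, rose by 0.66 (5.14 and 5.22 against 5.70 and 5.97), and its second probe set had a log2 difference of 0.22 (adjusted p = 0.105 over all probe sets). SEMA6C rose by 0.29, and the gauge gave no lower bound of a fold for SEMA4D or SEMA6C. SEMA3G (0.04), SEMA6B (-0.07) and SEMA4A (-0.09) did not pass, and of these SEMA6B was above the gauge on all arrays, with signals of 7.02 and 7.09 against 6.89 and 7.07 and a 95% interval of -0.31 to 0.16. Of the called semaphorins, SEMA6C lost its call without any 1 of the 4 arrays (adjusted p from 0.0592 to 0.181). SEMA4D lost it without either PC3-SCR array (0.0699 and 0.086), SEMA4F and SEMA5B without PC3-SCR replicate 1 or either PC3-PDEF array (up to 0.181 and 0.117), and SEMA6D without either PC3-SCR array or PC3-PDEF replicate 1 (up to 0.135).

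Both neuropilin genes fell. NRP1, the co-receptor of SEMA3A and of VEGF, had signals of 10.47 and 10.56 in PC3-SCR and of 7.76 and 7.74 in PC3-PDEF. It fell by 2.77 (standard error 0.083, adjusted p = 3.99e-06), a 6.8-fold lower level. NRP2 had signals of 8.21 and 8.10 against 6.77 and 6.82 and fell by 1.36 (standard error 0.086, adjusted p = 4.68e-05). The signal of a second NRP2 probe set fell by 1.81 (standard error 0.10). Both transcripts were above the gauge on all arrays.

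Among the 9 plexin genes there were 5 falls and 2 rises, a called share of 77.8% beside 50.7% of all genes. The falls lay in the A and B classes, in which 5 of 7 genes were lower and 0 higher. Of all genes 24.0% were lower. With so few genes the split by class is a description and was not tested. PLXNA2 had signals of 6.33 and 6.27 in PC3-SCR and of 4.94 and 5.01 in PC3-PDEF and fell by 1.32 (standard error 0.083, adjusted p = 4.56e-05), at least 1.52-fold over the gauge. PLXNA1, a partner of the neuropilins, had 8.33 and 8.23 against 7.39 and 7.46 and fell by 0.85 (standard error 0.087, adjusted p = 0.000314). PLXNB3 had 6.55 and 6.38 against 5.76 and 5.54 and fell by 0.81 (standard error 0.11, adjusted p = 0.0012).
The 2 plexin genes that rose belong to the C and D classes. PLXND1, the SEMA3E receptor gene, had signals of 6.28 and 6.52 against 7.10 and 7.01 and rose by 0.66 (standard error 0.11, adjusted p = 0.00269). PLXNC1, the SEMA7A receptor gene, rose by 0.47 with signals of 5.19 and 5.11 against 5.46 and 5.77, above the gauge on 1 of these arrays. PLXND1 and SEMA3E were therefore both higher, whereas PLXNC1 was higher and SEMA7A lower.
PLXNB1 fell by 0.53 near background and PLXNA3 by 0.30. PLXNB2 was well detected, at 7.56 and 7.47 against 7.36 and 7.30, with a log2 difference of -0.18 (95% interval -0.39 to 0.02). PLXNA4 (-0.12) was under the gauge. Without either PC3-PDEF array the log2 difference was -0.545 or -0.515 for PLXNB1 and 0.61 or 0.7 for PLXND1. For PLXNC1 it was 0.31 without PC3-PDEF replicate 2, and for PLXNA3 -0.215 without PC3-SCR replicate 2. Several calls were lost when 1 array was left out, which also leaves less to estimate the spread from. Those of PLXNB1 and PLXND1 were lost without either PC3-PDEF array (adjusted p of 0.0954 and 0.108, and of 0.0708 and 0.0841), that of PLXNB3 without PC3-SCR replicate 1 (0.0503), that of PLXNC1 without either PC3-SCR array or PC3-PDEF replicate 2 (0.101 to 0.182) and that of PLXNA3 without PC3-SCR replicate 2 or either PC3-PDEF array (0.13 to 0.205), and also after median centring.

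**Figure D2:**
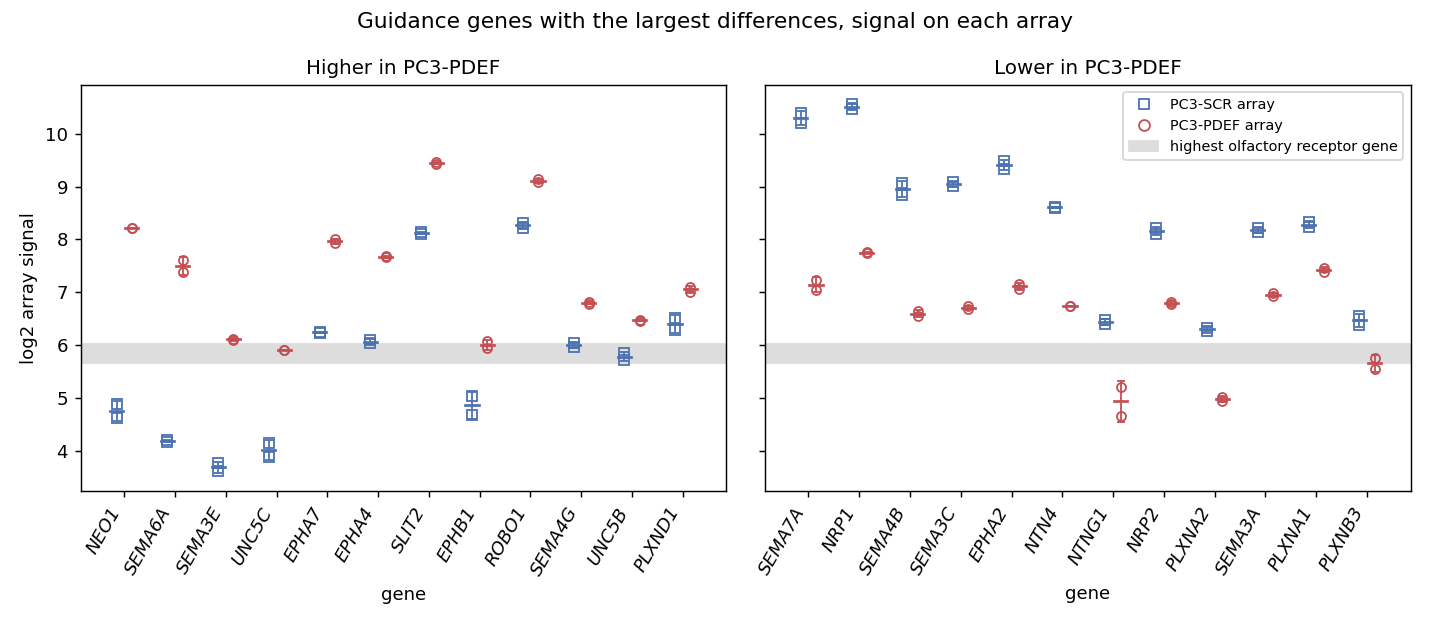
Log2 signal (vertical axis) of the 12 guidance genes with the largest fitted called rise (left) and the 12 with the largest fall (right) that were above the gauge on both arrays of their higher group, in PC3-SCR (squares) and PC3-PDEF (circles) arrays, where lines mark means and error bars the SD over the 2 arrays of a group. The grey band spans the highest olfactory receptor gene of the arrays, 5.65 to 6.01. NEO1 goes from 4.89 and 4.62 under the band to 8.21, while SEMA7A goes from 10.39 and 10.20 to 7.05 and 7.24.

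Ephrin genes differed by less than 2-fold, while single Eph receptor genes differed by more, in both directions. The 8 ephrin genes held 2 rises and 4 falls, a called share of 75% beside 50.7% of all genes. EFNB1 had signals of 7.31 and 7.19 in PC3-SCR and of 6.52 and 6.44 in PC3-PDEF and fell by 0.77 (standard error 0.089, adjusted p = 0.000566). EFNB2, a marker of arterial endothelium and a ligand of EPHB4, fell by 0.56 and EFNA1 by 0.52. EFNA4 fell by 0.45 under the gauge. EFNA3 rose by 0.61 and EFNA5 by 0.50, with EFNA5 signals of 7.56 and 7.27 against 7.92 and 7.91. Both rises were the less certain ones, since without either PC3-PDEF array EFNA3 had an adjusted p of 0.165 or 0.188, and EFNA5 lost its call without PC3-SCR replicate 2 or either PC3-PDEF array (0.0518 to 0.147). EFNA2 was well detected and had a log2 difference of 0.08 (95% interval -0.18 to 0.34), and EFNB3 one of -0.18.
The 13 Eph receptor genes held 4 rises and 4 falls, and 5 had no call. Their called share was 61.5%, beside 50.7% of all genes. EPHA2, a receptor abundant in many carcinomas, had signals of 9.48 and 9.34 in PC3-SCR and of 7.16 and 7.07 in PC3-PDEF. It fell by 2.29 (standard error 0.092, adjusted p = 9.08e-06), a 4.91-fold lower level, in the same direction as its ligand gene EFNA1. No other Eph receptor gene fell by more than 0.43.
EPHA7 had signals of 6.25 and 6.23 against 7.93 and 8.0 and rose by 1.73 (standard error 0.082, adjusted p = 1.66e-05), a 3.31-fold higher level. EPHA4, which binds ephrins of both classes, had signals of 6.03 and 6.10 against 7.68 and 7.66 and rose by 1.60 (standard error 0.082, adjusted p = 2.13e-05). EPHB1 had signals of 4.68 and 5.04 against 6.07 and 5.94 and a log2 difference of 1.15 (adjusted p = 0.000598), at least 1.02-fold over the gauge. EPHA6 rose by 1.09 with signals of 4.67 and 4.82, under the gauge.
EPHB4 (7.82 and 7.74 against 7.86 and 7.65) had a log2 difference of -0.02 (95% interval -0.27 to 0.22), and EPHA3 (6.89 and 6.95 against 7.08 and 7.14) one of 0.19 (-0.01 to 0.39). Neither passed the test at signals above the gauge on all arrays. EPHA5 fell by 0.42, EPHA10 by 0.29 and EPHB3 by 0.24, and each lost its call without any 1 of the 4 arrays (adjusted p from 0.0507 to 0.138). EPHA10 and EPHB3 did so after median centring too, and a second EPHA10 probe set had a log2 difference of -0.11. EPHB1 lost its call without either PC3-PDEF array (0.0517 and 0.0594) and EPHA6 without PC3-PDEF replicate 2 (0.0618). EPHB6, EPHA1 and EPHA8 were under the gauge and did not pass.

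Of the 6 netrin genes 1 rose and 2 fell, and of their 6 receptor genes 3 rose and 1 fell. The called shares were 50% and 66.7%, beside 50.7% of all genes. NEO1, which encodes neogenin, a receptor of netrins and of repulsive guidance molecules, had signals of 4.89 and 4.62 in PC3-SCR and of 8.21 and 8.21 in PC3-PDEF. Its log2 difference of 3.46 (standard error 0.11, adjusted p = 4.48e-06) was taken against signals at background, and against the gauge the level was at least 4.71-fold higher. NEO1 was thus at background in 1 group and well detected in the other.
UNC5C, a receptor gene for netrin repulsion, had signals of 3.88 and 4.15 against 5.90 and 5.90, a log2 difference of 1.89 (standard error 0.11, adjusted p = 3.43e-05). Since 5.90 lies under the gauge of both PC3-SCR arrays (5.94 and 6.01), there is no lower bound and no fold is given. UNC5B had signals of 5.72 and 5.84 against 6.48 and 6.46 and rose by 0.69 (standard error 0.086, adjusted p = 0.000798), at least 1.41-fold over the gauge. UNC5D, with signals between 4.34 and 4.72, fell by 0.32, and its call was lost without any 1 of the 4 arrays (adjusted p from 0.0522 to 0.109) and after quantile normalization. DCC, the classical netrin receptor gene, gave 4.01 and 4.08 against 3.80 and 4.13, and UNC5A was likewise under the gauge on all arrays.
Among the ligands NTN4, which encodes a netrin of basement membranes that binds laminin, had signals of 8.60 and 8.62 against 6.74 and 6.74. It fell by 1.87 (standard error 0.080, adjusted p = 1.09e-05), a 3.66-fold lower level. NTNG1, a gene for a membrane-bound netrin that does not use DCC, had signals of 6.48 and 6.39 against 5.21 and 4.66 and fell by 1.5 (standard error 0.18), at least 1.66-fold over the gauge. NTN1, the classical netrin, rose by 0.47 (7.16 and 6.96 against 7.59 and 7.47). NTN3, NTN5 and NTNG2 did not pass the test and lay near background. NTNG1 lost its call without either PC3-SCR array (adjusted p of 0.0539 and 0.0595) and NTN1 without PC3-SCR replicate 2 or either PC3-PDEF array (0.0818 to 0.126).

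SLIT2 and ROBO1, a ligand gene and its receptor gene, both rose. SLIT2, which encodes a secreted repellent, had signals of 8.11 and 8.14 in PC3-SCR and of 9.46 and 9.43 in PC3-PDEF. It rose by 1.32 (standard error 0.080, adjusted p = 3.96e-05), a 2.50-fold higher level. ROBO1 had signals of 8.31 and 8.22 against 9.14 and 9.08 and rose by 0.85 (standard error 0.085, adjusted p = 0.000306). These 2 genes were far above the gauge in both groups.
ROBO2 rose by 1.82, from 3.87 and 3.99 to 5.77 and 5.74, at the gauge. SLIT1 rose by 0.60 under the gauge and SLIT3 had a log2 difference of -0.22 (95% interval -0.48 to 0.03). ROBO4, a Robo gene of endothelial cells, fell by 0.67, at least 1.42-fold over the gauge, and ROBO3 by 0.45 near background. Both lost their call when 1 of several single arrays was left out, ROBO4 without PC3-SCR replicate 1 or either PC3-PDEF array (adjusted p from 0.0784 to 0.164) and ROBO3 without either PC3-SCR array or PC3-PDEF replicate 2 (0.0829 to 0.161). UNC50 and UNC5CL, the genes taken in by their letters, had log2 differences of -0.28 (adjusted p = 0.051) and -0.37 (adjusted p = 0.0989).

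**Figure D3:**
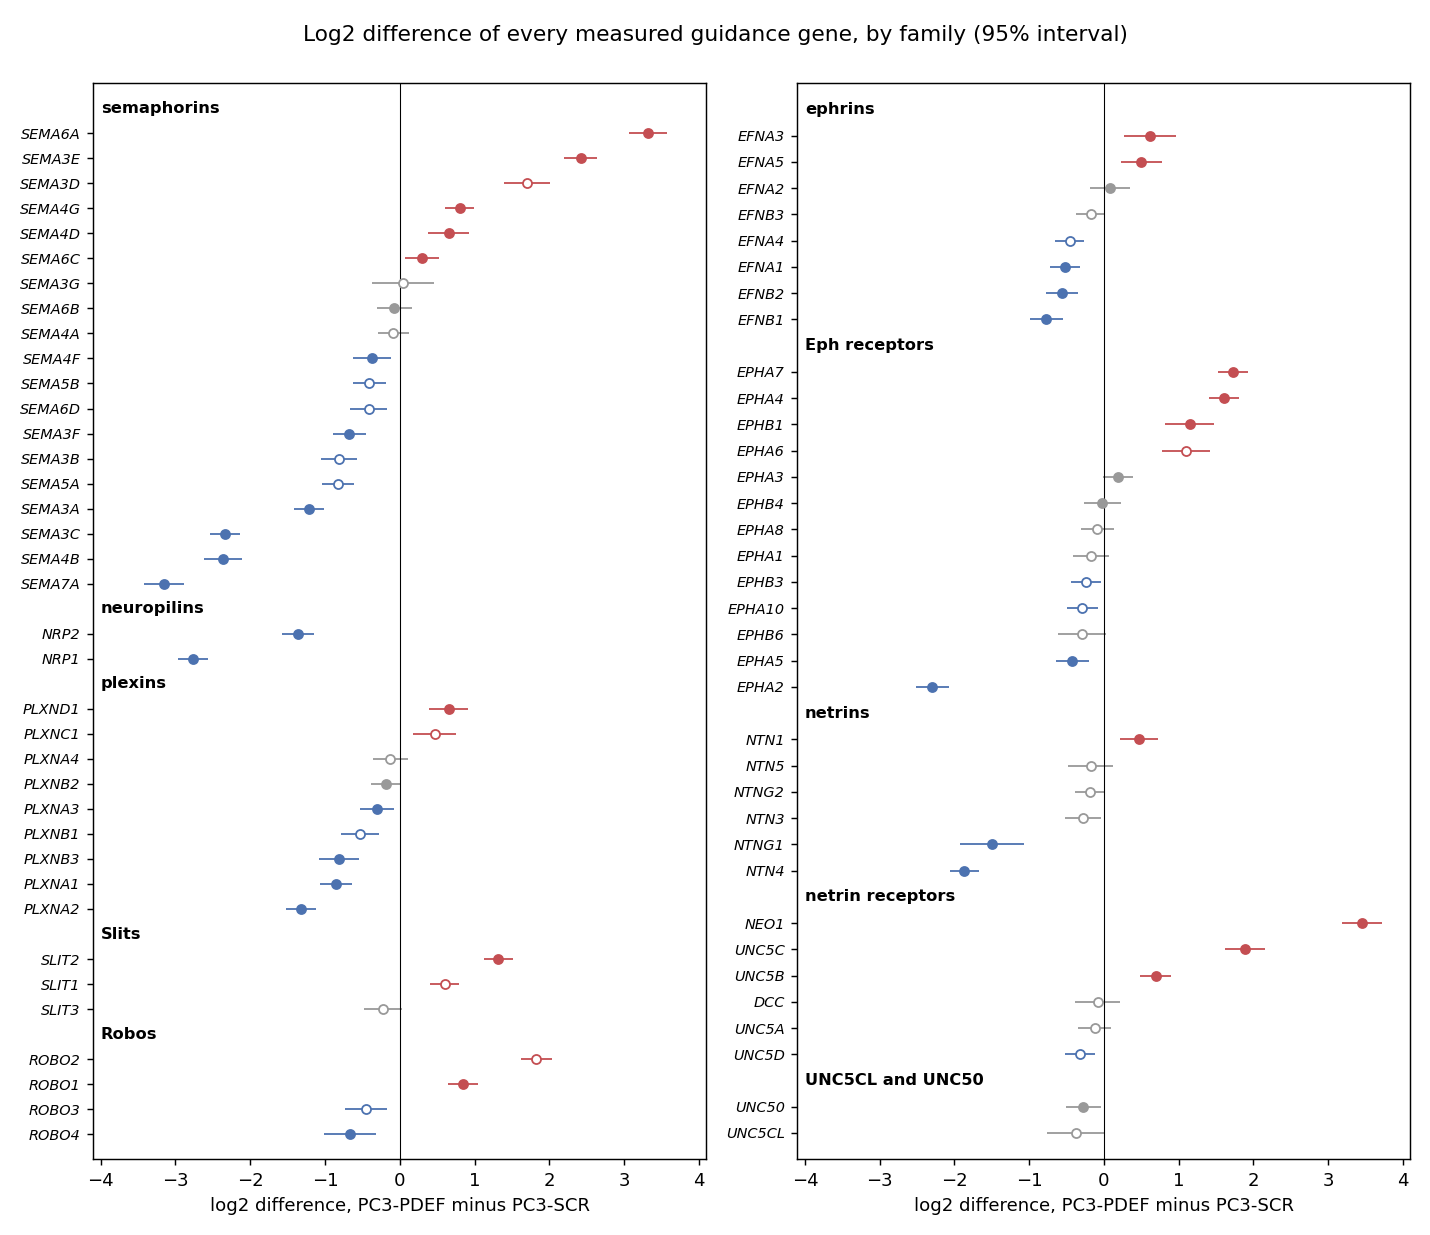
Log2 difference PC3-PDEF minus PC3-SCR (horizontal axis) of each of the 72 genes (vertical axis), grouped by family, with the 95% interval as a bar (limma, 2 arrays per group). Red genes were higher and blue ones lower at an adjusted p under 0.05, grey ones did not pass, and open points were in neither group above the gauge on both arrays. Both neuropilins and 5 plexins were called lower, and the fitted range runs from -3.15 for SEMA7A to 3.46 for NEO1.

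Several guidance genes are neighbours on a chromosome, called in the same or in opposite directions. Among genes no more than 2 Mb apart in GRCh38.p14, 14 adjacent pairs were found, of which 6 were called in opposite directions, 5 in the same direction and 3 held a gene not called. Of all 72 genes, 22 were higher and 30 lower. The same count over all neighbouring genes was not made, so the split is a description and no result about these pairs. NEO1 (higher) and SEMA7A (lower) are a pair of opposite direction, as are PLXNC1 (higher) and NTN4 (lower). SEMA3E, SEMA3A and SEMA3D lie in a row and had log2 differences of 2.42, -1.22 and 1.71. In the row EFNA4, EFNA3 and EFNA1 they were -0.46, 0.61 and -0.52. The pairs called in the same direction were ROBO2 and ROBO1 (both higher), and ROBO3 and ROBO4, PLXNB1 and SEMA3F, SEMA3F and SEMA3B, and PLXNB3 and PLXNA3 (all lower).

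Further ligands and co-receptors of these receptors were called in both directions, at a share near that of all genes. The list had 32 genes, of which 30 were measured. There were 11 falls and 6 rises among them, a called share of 56.7% beside 50.7% of all genes. The median log2 difference was -0.07, and over all genes it was -0.05. RGMB, a neogenin ligand gene, had signals of 9.97 and 9.81 in PC3-SCR and of 7.12 and 7.08 in PC3-PDEF. It fell by 2.79 (adjusted p = 4.9e-06), opposite to NEO1. RGMA, another such ligand gene, did not fall. Its signals were 6.31 and 6.24 against 6.57 and 6.41, a log2 difference of 0.215 (adjusted p = 0.101). VEGFC, a growth factor gene whose product binds neuropilin-2, had signals of 9.19 and 9.22 against 6.90 and 6.75 and fell by 2.38. KDR, a VEGF receptor gene whose product pairs with neuropilin-1, had signals of 6.95 and 7.15 against 4.78 and 4.87, at least 2.55-fold lower. VEGFA and VEGFB, further growth factor genes of that family, fell by 1.46 and 0.94.
Other genes of the same signalling family rose. The receptor gene FLT4 (5.17 and 5.53 against 7.07 and 7.07) was at least 2.14-fold higher and the growth factor gene PGF (5.04 and 5.20 against 6.37 and 6.31) at least 1.29-fold higher. The receptor gene FLT1 was also called higher, with signals of 3.48 and 3.32 against 4.98 and 5.54, under the gauge in both groups. The adhesion molecule gene NRCAM (4.65 and 4.52 against 6.10 and 6.14) was at least 1.11-fold higher.

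Intracellular effectors of guidance receptors split between the directions, and 48 of them were above the gauge on all arrays. The list had 68 genes, of which 61 were measured. There were 25 falls and 21 rises among them, a called share of 75.4% beside 50.7% of all genes, with a median log2 difference of 0.05. MICAL2, an actin-oxidizing enzyme gene of the family that acts below plexins, had signals of 9.28 and 9.17 in PC3-SCR and of 6.03 and 6.12 in PC3-PDEF and fell by 3.15 (adjusted p = 3.49e-06). ABLIM3, an actin-binding protein gene, had signals of 9.72 and 9.49 against 6.56 and 6.54 and fell by 3.06. DPYSL3, a collapsin response mediator gene, had signals of 8.14 and 8.14 against 5.36 and 5.37, at least 5.43-fold lower. Of their families, MICAL1 and DPYSL2 also fell, MICAL3 did not pass the test, and DPYSL4, DPYSL5 and ABLIM1 rose.
DPYSL5, another collapsin response mediator gene, had signals of 4.67 and 4.43 against 7.08 and 7.05, at least 2.13-fold higher. VAV2, a guanine nucleotide exchange factor gene, rose by 1.37 (5.95 and 5.73 against 7.30 and 7.12). ABLIM1 (5.93 and 5.93 against 7.16 and 7.35) was at least 2.43-fold higher. The count of higher genes was 12 without PC3-PDEF replicate 1 and 13 without replicate 2, and that of lower genes 16 and 15.

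**Figure D4:**
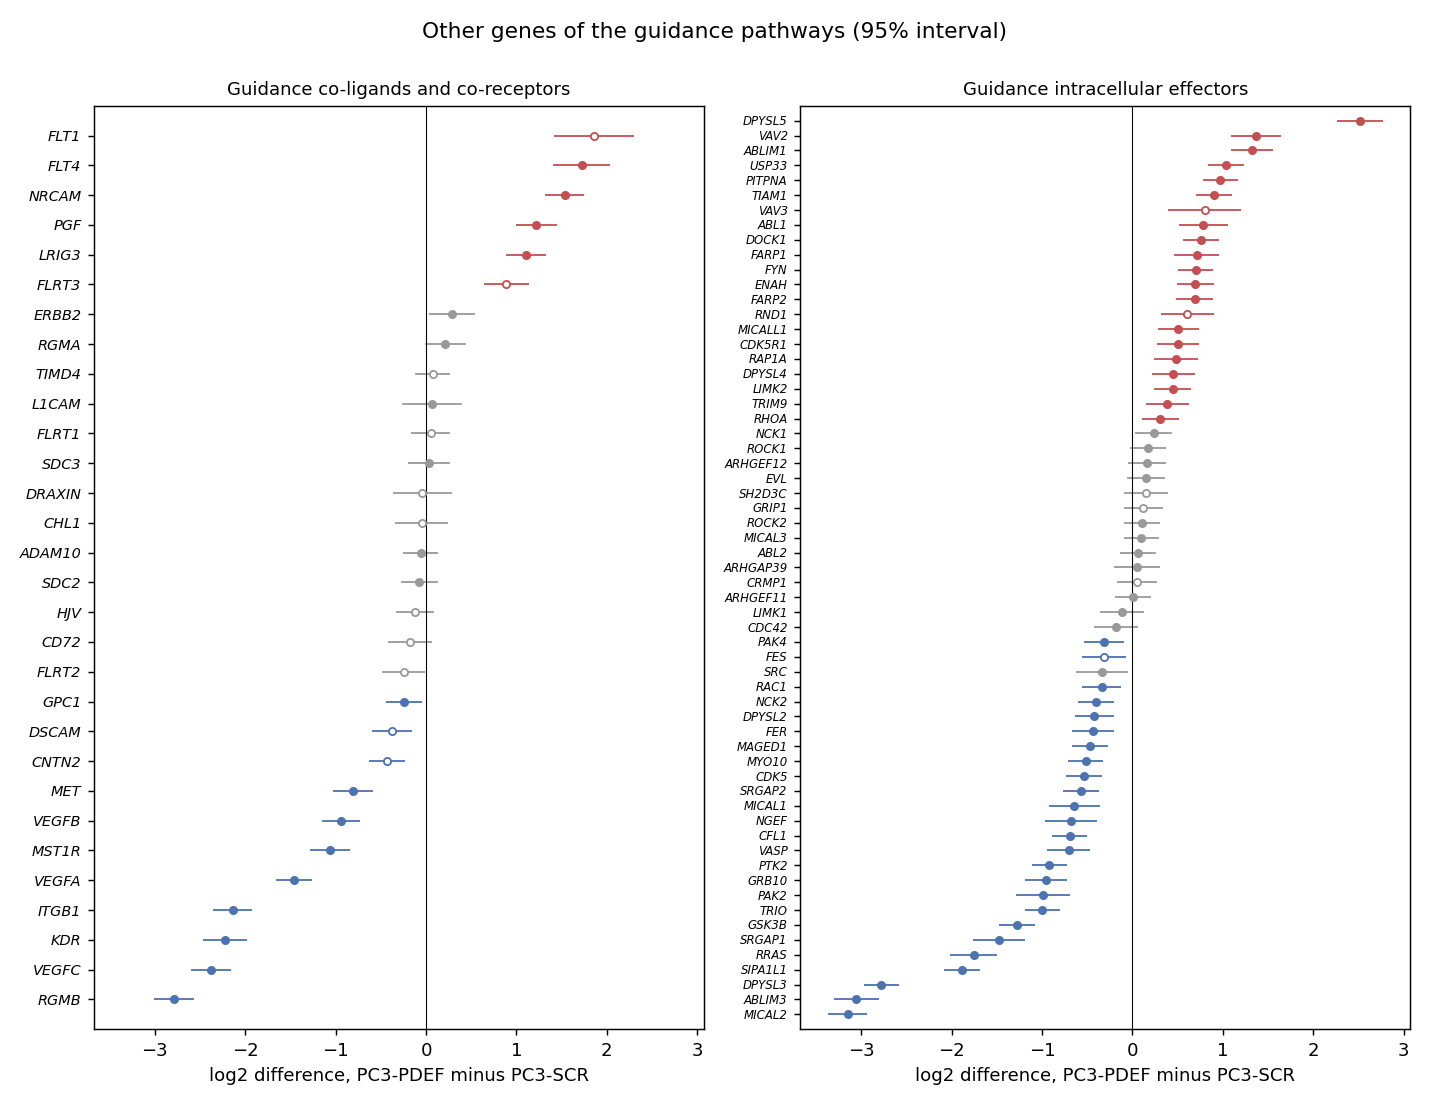
Log2 difference PC3-PDEF minus PC3-SCR (horizontal axis) of the 30 co-ligand and co-receptor genes (left) and the 61 intracellular effector genes (right), with the 95% interval as a bar and colours as for the guidance families, open points being in neither group above the gauge on both arrays. The fitted differences of the effectors range from MICAL2 at -3.15 to DPYSL5 at 2.52.

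Of the marker lists of other cell types, the called shares were 38.5% (neuronal), 50% (endothelial and fibroblast) and 16.7% (leukocyte), none above the 50.7% of all genes, and single genes carried the differences in summed signal. Of 14 neuronal markers 13 were measured, and 4 rose and 1 fell, and the sum of their linear signals was 425 and 448 in PC3-SCR and 2480 and 2740 in PC3-PDEF. NEFM (4.8 and 5.24 against 10.69 and 10.89), NEFL and INA, genes of neuronal intermediate filaments, carried the largest rises, and 1 of the 13 was above the gauge on each PC3-SCR array and 4 on each PC3-PDEF array, whereas DCX, MAP2, STMN2, ELAVL3 and ELAVL4 were under 4 on all arrays. The 8 endothelial markers summed to 354 and 391 against 178 and 171, and 4 of them fell. TIE1 (7.53 and 7.57 against 4.52 and 4.83) was above the gauge on both PC3-SCR arrays and CLDN5 on 1, while PECAM1, CDH5 and VWF were under 5 throughout. The 8 fibroblast markers summed to 592 and 516 against 299 and 276, and 4 fell, with COL1A1 alone above the gauge. The 6 leukocyte markers measured summed to 853 and 792 against 229 and 237, with CD68 alone above the gauge and PTPRC under 3 on all arrays. The 10 prostate epithelial markers measured summed to 2124 and 2048 against 1472 and 1553. Of these, 1 was higher (ACP3, under the gauge) and 2 lower (KRT8 and EPCAM), a called share of 30%, and KLK3 was under the gauge. The part of such cells in the guidance gene differences was not tested.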

How the data were processed

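RNA of PC3-SCR and PC3-PDEF cells (2 arrays each) was hybridized to Affymetrix HuGene-1.0-st-v1 arrays. The authors deposited log2 signals of 33297 probe sets, made with Transcriptome Analysis Console according to the submitters' processing notes. The version, any background correction and how arrays were normalized: not given in the sources used here. Base 2 was inferred from how far the values range. Array medians lay at 5.41 to 5.46, and the values were used as deposited.

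The platform annotation gave 1 symbol for 19460 probe sets, several for 1754 and none for 12083. Symbols were updated through the GRCh38.p14 gene table (99.8% matched), and the probe set with the highest mean stood for each of 18417 genes. The 72 guidance genes came from 75 probe sets, and EPHA10, NRP2 and SEMA4D had more than 1.

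Groups were compared with limma 3.58.1 in R 4.3.3 (lmFit and eBayes, two-sided, 2 residual and 4.23 prior degrees of freedom), tested on simulated data, with Benjamini-Hochberg adjustment over all genes. Full values are given for the called genes with the largest differences, up to 12 in each direction, that were above the gauge on both arrays of their higher group, for up to 8 genes above it on all 4 arrays with the smallest difference, and for 3 genes in each direction of the pathway lists. Other genes, markers included, were named with their values seen. The members and gene lists were chosen with earlier results of these data known. Whether replicate arrays stem from different cultures is not stated, so the p-values reflect array-to-array spread alone, possibly technical. The number of arrays limits the precision. Alternatives were quantile normalization, median centring, a filter for genes above the median level, a replicate block, an intensity trend in eBayes, all probe sets in place of 1 per gene, and leaving out each array.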

Additional observations from a re-analysis of the deposited data

How the results depend on the processing

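Of the 52 called guidance genes, 30 kept their call under every alternative that gave them a value, and no called gene changed direction. Among genes above the median level, which leaves fewer genes to test, 11 guidance genes were higher and 17 lower, 4 were at least 2-fold higher, and 7 co-ligand and co-receptor genes were lower. Leaving out 1 array at a time, which leaves 1 array in a group that is assumed to vary like the other group, gave 14 to 19 higher and 19 to 22 lower guidance genes, 9 to 11 at least 2-fold higher and 9 to 10 lower, 6 higher and 8 to 10 lower co-ligand and co-receptor genes, and 12 to 14 higher and 15 to 22 lower effectors. Genes that did not pass the test and changed sign, still without passing, were DCC (0.015 after quantile normalization, -0.245 to 0.085 with an array left out), SEMA4A (0.01 after quantile normalization), EPHB4 (0.015 after median centring, -0.13 to 0.08 with an array left out), EFNA2 (-0.05 to 0.21), SEMA6B (-0.165 to 0.015) and SEMA3G (-0.22 to 0.3), the last 3 with an array left out. Deviations of arrays with the same replicate number correlated at 0.012 between the groups, so the numbers were not taken to pair the arrays. With the replicate block 19 guidance genes were higher and 23 lower. Signals near the gauge limit what can be said of the size of a difference.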
